A study of Mus musculus with 12 samples.

Results

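Gene deserts were taken as intervals of at least 1 Mb that hold no RefSeq protein-coding gene and lie between a pair of such genes on chromosomes 1 to 19 of the mouse. There were 246, from 1.01 to 4.54 Mb long with a median of 1.5 Mb, and 27 of them reached 3 Mb. A peak was counted when it lay wholly inside a desert and over 50 kb from both flanking genes. That left 423 Mb of desert interior, 17.6% of the 2398 Mb between the first and last protein-coding gene of each chromosome. It held 11751 of the 302071 accessible-chromatin peaks in 3 libraries, or 6918 of 166039 autosomal regions once overlapping peaks of the lists were merged. RefSeq does not class antigen receptor segments as protein-coding genes, so 3 of the deserts hold such segments. Without them, a setting chosen after seeing the data, the regions common to all 3 lists numbered 1180 in place of 1193.

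Chromatin accessibility was measured by ATAC-seq, in which a transposase cuts open DNA and leaves sequencing adapters there. The libraries came from infralimbic prefrontal cortex, a region needed for the extinction of fear, of adult male C57BL/6 mice aged 10 to 12 weeks. All mice were fear conditioned with 3 pairings of a tone and a foot shock. On the next day, in a context B unlike that of conditioning, the extinction group (EXT) was given 60 tones. The retention control group (RC) was kept in context B for as long with no tone. Cells that stained for NeuN, a neuronal nuclear protein, and for Arc, the product of an activity-induced gene, were sorted from pools of 5 mice, and 50000 cells went into each library. A replicate is thus a pool of animals and its spread is between pools.

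Deserts carry no protein-coding genes, but many lie beside genes that control development and hold distal enhancers, DNA elements that loop to a promoter far away. They also hold genes for long noncoding RNAs (lncRNAs) and for microRNAs (miRNAs), short RNAs that pair through a seed near their 5′ end with messenger RNAs and repress them. In neurons, distal enhancers are among the sites where activity-dependent transcription factors of the AP-1 and MEF2 families bind.

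Complete lists were held for EXT replicate 1, EXT replicate 2 and RC replicate 3, with 80735, 123375 and 97961 peaks from 65.0, 57.7 and 73.8 M tags. EXT replicate 2 had the longest list and the fewest tags. The lists of RC replicates 1 and 2 ended within chromosome 1, at positions 166286196 and 37624379, and entered only where they reach. Peaks overlapped, within 1 kb, 6 of 6 neuronal markers and 5 of 5 excitatory markers in every complete list, 5, 4 and 5 of 6 inhibitory markers in EXT replicate 1, EXT replicate 2 and RC replicate 3 (Sst in none), and also 5 of 6 oligodendrocyte, 4 of 5 astrocyte, 4 of 5 microglial and 4 of 5 endothelial markers. A peak within such a gene thus did not separate cell types here, and the part of other cell types in what follows was not tested.

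The sequences where desert accessibility met an annotated noncoding gene are given first. The promoter windows, 250 bases before to 50 after an annotated start, belong to lncRNA genes inside deserts whose window held a peak in all 3 lists. They are the 3 with the highest mean rank of fold enrichment, the CpG-rich Gm34507, and 1 each from the Nr5a2-Ptprc and Gm51483-Ndn deserts, which also hold the miRNAs printed below. All are RefSeq GRCm38.p6 sequence on the gene's own strand, with every CpG in capitals.

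1110002O04Rik: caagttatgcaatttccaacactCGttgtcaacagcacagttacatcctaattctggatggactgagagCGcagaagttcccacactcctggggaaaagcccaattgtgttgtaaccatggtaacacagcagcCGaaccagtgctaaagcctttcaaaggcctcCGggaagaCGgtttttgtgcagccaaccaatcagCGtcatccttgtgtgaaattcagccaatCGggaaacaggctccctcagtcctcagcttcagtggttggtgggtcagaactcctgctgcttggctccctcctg
Gm26901: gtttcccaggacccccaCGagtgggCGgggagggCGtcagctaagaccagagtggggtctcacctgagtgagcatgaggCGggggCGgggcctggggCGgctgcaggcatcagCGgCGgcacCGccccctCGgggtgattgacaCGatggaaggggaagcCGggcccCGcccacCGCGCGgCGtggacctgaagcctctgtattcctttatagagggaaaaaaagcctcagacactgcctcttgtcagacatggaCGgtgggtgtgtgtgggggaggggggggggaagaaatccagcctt
Dubr: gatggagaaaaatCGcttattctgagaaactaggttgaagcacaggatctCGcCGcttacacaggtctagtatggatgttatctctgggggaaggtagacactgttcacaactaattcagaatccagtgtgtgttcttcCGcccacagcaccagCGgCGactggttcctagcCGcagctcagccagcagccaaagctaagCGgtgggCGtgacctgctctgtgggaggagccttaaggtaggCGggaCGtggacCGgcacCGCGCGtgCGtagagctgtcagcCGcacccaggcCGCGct
Gm34507: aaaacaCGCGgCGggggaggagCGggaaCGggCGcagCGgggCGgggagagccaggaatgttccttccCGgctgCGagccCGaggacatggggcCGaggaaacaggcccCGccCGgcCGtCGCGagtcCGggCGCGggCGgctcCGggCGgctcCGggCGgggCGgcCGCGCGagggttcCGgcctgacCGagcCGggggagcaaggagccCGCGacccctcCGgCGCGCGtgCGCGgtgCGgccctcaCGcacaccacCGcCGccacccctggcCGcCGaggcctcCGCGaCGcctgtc
Gm4258: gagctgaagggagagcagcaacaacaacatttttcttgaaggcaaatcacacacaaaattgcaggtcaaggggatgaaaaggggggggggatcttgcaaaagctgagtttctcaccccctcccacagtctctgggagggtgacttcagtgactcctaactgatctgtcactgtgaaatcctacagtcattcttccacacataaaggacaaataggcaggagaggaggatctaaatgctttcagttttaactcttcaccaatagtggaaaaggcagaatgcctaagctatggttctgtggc
A330076H08Rik: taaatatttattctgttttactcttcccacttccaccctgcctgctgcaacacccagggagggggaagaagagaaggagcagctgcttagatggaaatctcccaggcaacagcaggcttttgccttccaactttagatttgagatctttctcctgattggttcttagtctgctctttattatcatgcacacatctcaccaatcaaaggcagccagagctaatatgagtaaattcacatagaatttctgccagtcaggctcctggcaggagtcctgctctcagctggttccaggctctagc

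These windows lie at chr1:35869698-35869997 (+), chr1:7398047-7398346 (-), chr16:50732724-50733023 (-), chr17:4908072-4908371 (+), chr1:137898214-137898513 (+) and chr7:61982306-61982605 (-) of mm10, in the order printed. They hold 7, 18, 19, 49, 0 and 0 CpG dinucleotides.

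The mature miRNAs below are given as in RefSeq, with the seed (bases 2 to 8) in capitals. The first 6 are 5′ arms from Mir344 family hairpins that had a peak within 1 kb in all 3 lists, and they share the seed GUCAGGC. The next 4 are from Mir344 hairpins with a peak in at most 1 list, and they have other seeds. In miR-344i, however, the letters GUCAGGC stand 1 base further in. The last pair are the miR-181 arms from a desert on chromosome 1, beside a peak found in all 3 lists.

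mmu-miR-344-5p: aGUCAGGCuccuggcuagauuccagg
mmu-miR-344b-5p: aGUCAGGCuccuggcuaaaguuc
mmu-miR-344c-5p: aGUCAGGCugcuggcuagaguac
mmu-miR-344d-1-5p: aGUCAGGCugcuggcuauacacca
mmu-miR-344d-3-5p: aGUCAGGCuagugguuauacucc
mmu-miR-344g-5p: aGUCAGGCuccuggcaggagu
mmu-miR-344d-2-5p: aGUCUGGUugcuggcuauauucca
mmu-miR-344e-5p: cAGGCUUCuggcuauauucc
mmu-miR-344f-5p: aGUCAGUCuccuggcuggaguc
mmu-miR-344i: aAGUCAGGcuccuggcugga
mmu-miR-181a-5p: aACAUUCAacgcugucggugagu
mmu-miR-181b-5p: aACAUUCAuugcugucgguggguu

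Accessible regions were sparse in deserts in every library. Desert interiors held 6.92 peaks per Mb in EXT replicate 1, 11.9 in EXT replicate 2 and 8.93 in RC replicate 3, against 38.8, 58.9 and 46.8 peaks per Mb of the other autosomal sequence in the same libraries. The density elsewhere was thus 5.61, 4.93 and 5.25 times that in deserts. On the log2 scale the desert density over the other density was -2.49, -2.30 and -2.39, with a mean of -2.39 ± 0.093 (SD, n = 3 libraries). All 3 libraries were lower in deserts, by far more than the libraries differed from each other (two-sided exact sign-flip p = 0.25, the smallest that 3 libraries allow, and 0.3125 after Benjamini-Hochberg adjustment over 5 tests). The lists put 3.62% (exact 95% binomial interval 3.49 to 3.75), 4.09% (3.98 to 4.21) and 3.85% (3.73 to 3.98) of their peaks in desert interiors, intervals that cover counting error only.

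Density fell in steps with the kind of sequence. Within 50 kb of a flanking gene, the desert margins held 17.1, 26.6 and 20.5 peaks per Mb in EXT replicate 1, EXT replicate 2 and RC replicate 3. Shorter intergenic intervals held 28.9, 44.1 and 34.6 peaks per Mb, and protein-coding genes 49.0, 74.2 and 59.5. Every library kept the same order of the 4 kinds of sequence. Set only against sequence between genes that was also over 50 kb from them, deserts still held fewer peaks, with a mean log2 ratio of -1.38 over the 3 libraries.

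**Figure D1:**
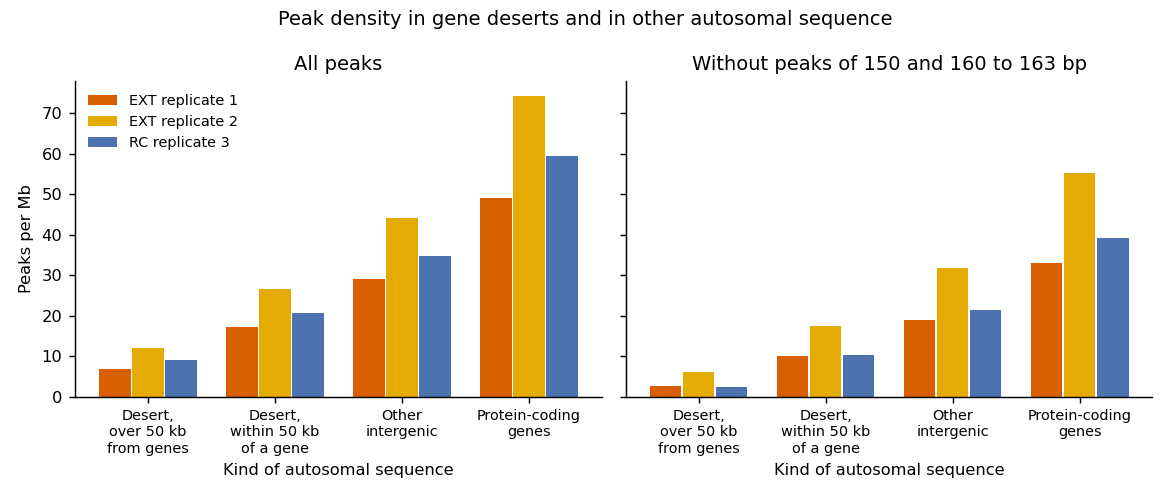
Peaks per Mb (y axis) in 4 kinds of autosomal sequence (x axis) for EXT replicate 1, EXT replicate 2 and RC replicate 3, with all peaks on the left and without peaks of 150 and 160 to 163 bp on the right. Each bar is 1 library; with all peaks, desert interiors had 6.92 to 11.9 peaks per Mb and protein-coding genes 49.0 to 74.2.

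Inside deserts the density fell with distance from the genes. Peaks 50 to 100 kb from the nearer flanking gene numbered 11.5, 20.0 and 14.4 per Mb in EXT replicate 1, EXT replicate 2 and RC replicate 3. Beyond 800 kb they numbered 4.01, 6.26 and 5.38 per Mb. Each library declined at every step through the 5 distance classes. The median distance of a region held by all 3 lists was 349 kb, against 367, 362 and 349 kb for regions of EXT replicate 1 alone, EXT replicate 2 alone and RC replicate 3 alone, medians that lay close together.

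**Figure D2:**
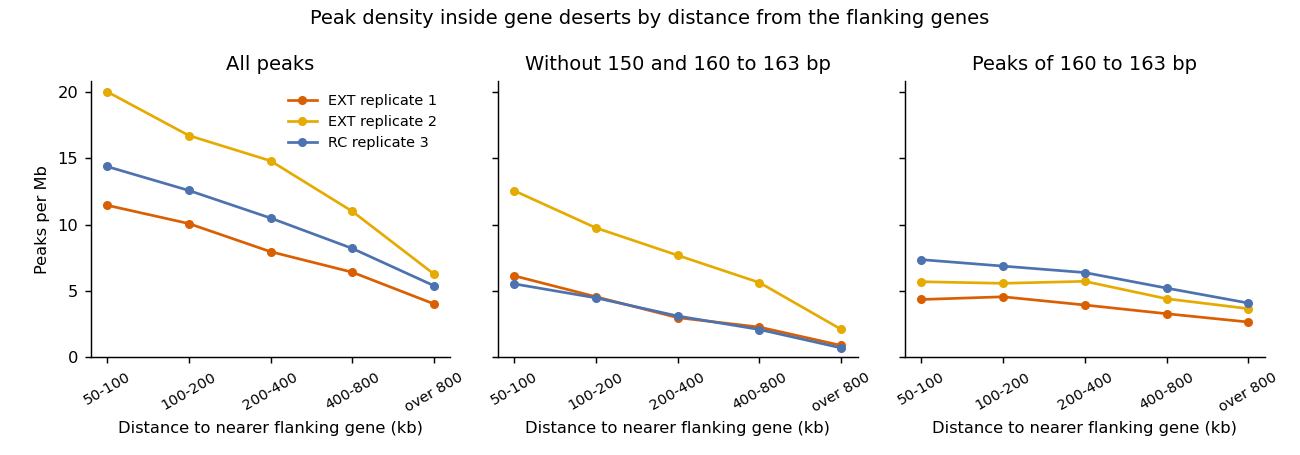
Peaks per Mb of desert interior (y axis) by distance to the nearer flanking gene in kb (x axis), 1 line per library, for all peaks, for peaks other than 150 and 160 to 163 bp, and for those of 160 to 163 bp. All peaks fell to 4.01 to 6.26 per Mb beyond 800 kb, and the 160 to 163 bp peaks were the flattest, with 2.65 to 4.08 per Mb there.

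Desert peaks were narrow. The median width was 160 bp in EXT replicate 1, 163 bp in EXT replicate 2 and 160 bp in RC replicate 3, against 210, 246 and 211 bp elsewhere in the same libraries. The mean difference of the medians was -61.3 bp ± 18.8 (SD, n = 3), with the same sign in 3 of 3 libraries (two-sided exact sign-flip p = 0.25, adjusted 0.3125), and -27.7 bp without the common widths of 150 and 160 to 163 bp. Peaks over 300 bp made up 13.6%, 23.3% and 11.2% of desert peaks, against 29.9%, 39.2% and 32.0% elsewhere. The longest desert peaks spanned 1208, 1443 and 1211 bp.

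A narrow class of widths was common. Peaks of 160 to 163 bp made up 50.4% of desert peaks in EXT replicate 1, 39.7% in EXT replicate 2 and 61.9% in RC replicate 3, against 22%, 18.1% and 26.3% of peaks elsewhere. The tags had been extended to 150 bp, so a peak of that class is barely wider than a single extended tag. Of these desert peaks, 85.4%, 59.1% and 85.0% had exactly the same start and end as a peak in another complete list. Elsewhere 75.3%, 56.8% and 79.0% of the class did, so shared bounds were not particular to deserts. Of desert peaks over 300 bp, 0.252%, 0.0849% and 0.474% had shared bounds. The class rested on many tags, with a median pileup at the summit of 40, 39 and 43, against 26, 35 and 28 for desert peaks over 300 bp.

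The shared bounds joined particular libraries. In EXT replicate 1, 84.3% of the 160 to 163 bp desert peaks had the same bounds in RC replicate 3 and 29.9% in EXT replicate 2. Outside deserts these shares were 73.2% and 30.1%. In EXT replicate 2, 58.3% had them in RC replicate 3 and 22% in EXT replicate 1, against 55.1% and 24.1% outside deserts. EXT replicate 1 thus shared more of these bounds with RC replicate 3 than with EXT replicate 2, in deserts and elsewhere alike. The other RC libraries differed in this: on the shared part of chromosome 1, of 31 such desert peaks in EXT replicate 1, 12 had the same bounds in EXT replicate 2, and 5, 13 and 23 had them in RC replicates 1, 2 and 3. Duplicate tags were kept in the peak calling and the reads are not held here, so whether each such peak rests on 1 fragment copied many times was not tested.

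**Figure D3:**
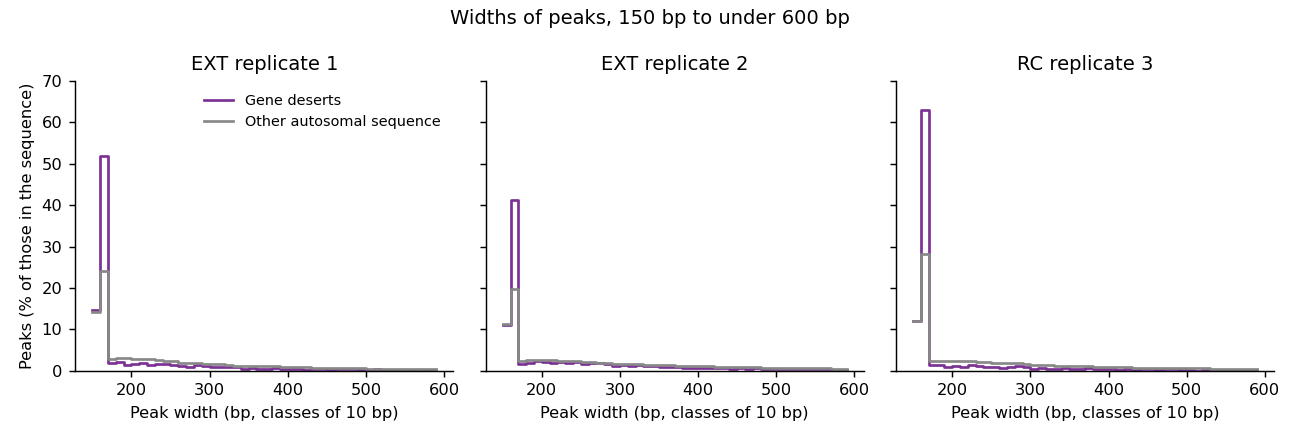
Share of peaks in percent (y axis) by width in classes of 10 bp (x axis) for gene deserts and other autosomal sequence, 1 panel per library. The class that starts at 160 bp stands above all others in both kinds of sequence and is higher in deserts, where peaks of 160 to 163 bp alone made up 39.7% to 61.9%.

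Without the widths of 150 and 160 to 163 bp, deserts were sparser still. They held 2.59, 6.14 and 2.46 peaks per Mb in EXT replicate 1, EXT replicate 2 and RC replicate 3, and the mean log2 ratio of desert over other density was -3.25. The fall with distance was also steeper, from 6.14, 12.6 and 5.53 peaks per Mb at 50 to 100 kb down to 0.879, 2.09 and 0.692 beyond 800 kb. The 160 to 163 bp peaks themselves declined less, with 4.35, 5.69 and 7.36 per Mb nearest the genes and 2.65, 3.66 and 4.08 farthest away.

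Fold enrichment, the authors' ratio of the pileup to the local background within a list, was higher in deserts. Its median was 4.99 in EXT replicate 1, 5.51 in EXT replicate 2 and 5.34 in RC replicate 3, against 3.68, 4.30 and 3.76 elsewhere. The tags behind those ratios did not rise with it. The median pileup was 30, 30 and 36 in deserts against 31, 35 and 37 elsewhere, and the background implied by pileup and fold was 6.21, 5.63 and 6.92 tags against 7.92, 7.57 and 8.77. Within a width class the gap in fold was narrower. Peaks of 160 to 163 bp, commoner in deserts, had the highest median folds, 6.60, 7.11 and 6.36 in deserts and 5.95, 6.22 and 5.89 elsewhere. For peaks over 300 bp the medians were 4.18, 6.04 and 4.05 against 3.94, 5.19 and 3.92.

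Recurrence across libraries was lower in deserts. Of desert peaks, 41.1% in EXT replicate 1, 23.6% in EXT replicate 2 and 31.8% in RC replicate 3 overlapped a peak in each of the other complete lists, against 55.3%, 35.9% and 45.5% of peaks elsewhere. The mean difference was -13.4 percentage points ± 1.01 (SD, n = 3), with the same sign in 3 of 3 libraries (two-sided exact sign-flip p = 0.25, adjusted 0.3125), but each overlap counts in both lists, so the libraries are not independent here. Without EXT replicate 2 the mean difference was 1.09 percentage points, but a peak then had to overlap only the other remaining list. The libraries differed in sign there, with 73.0% in deserts and 69.9% elsewhere in EXT replicate 1, and 56.5% and 57.4% in RC replicate 3. Over the 3 lists the mean difference was -8.14 percentage points without the common short widths, and -6.46 where an overlap had to cover 50% of both peaks.

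By merged region, 1193 of 6918 desert regions (17.2%) were held by all 3 lists, where 25.9% of all autosomal regions were. Of these, 433 (36.3%) had the same bounds in all 3 lists, against 11.7% of such regions elsewhere. EXT replicate 2 alone held 2393 (34.6%, against 28.9% of regions elsewhere), EXT replicate 1 alone 465 (6.72% against 9.57%), and EXT replicate 2 with RC replicate 3 a further 1150 (16.6% against 13.2%). The pattern that stood highest against the rest of the genome was EXT replicate 1 with RC replicate 3, which held 930 regions (13.4%) in deserts and 6.79% of regions elsewhere. In 703 of those 930 every peak was 160 to 163 bp wide, and without the short widths the share was 1.72% in deserts and 2.78% elsewhere.

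No difference in desert accessibility between EXT and RC exceeded the spread between libraries where it could be tested. Both EXT lists without RC replicate 3 held 304 desert regions (4.39%), beside 4.36% of all autosomal regions. Without the common short widths the share was 9.21% in deserts (284 of 3083) and 5.58% elsewhere. RC replicate 3 without either EXT list held 483 (6.98%), beside 10.8% of all regions, and without the short widths 204 (6.62%), against 12.1% elsewhere. With 1 complete RC list these counts have no replicate check, but chromosome 1 allows a look at another RC library. Up to the end of the RC replicate 1 list, 16 of the 23 desert regions in both EXT lists and not RC replicate 3 (69.6%, exact 95% interval 47.1 to 86.8) had a peak in RC replicate 1, against 76.1% of such regions elsewhere, and 5 of the 7 that RC replicate 2 reached had one there. Of 37 desert regions of RC replicate 3 without EXT, 6 (16.2%, 6.19 to 32.0) had a peak in RC replicate 1, against 19.9% elsewhere. Of 83 in all 3 complete lists, 59 (71.1%, 60.1 to 80.5) did, against 86.6% of such regions elsewhere.

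The part of chromosome 1 that all 5 lists reach holds 4 deserts with 6.09 Mb of interior. EXT replicates 1 and 2 had 10.0 and 16.8 peaks per Mb there, and RC replicates 1, 2 and 3 had 11.3, 15.3 and 10.0. The groups overlapped fully, with means of 13.4 ± 4.76 in EXT (SD, n = 2) and 12.2 ± 2.74 in RC (SD, n = 3). EXT minus RC on the log2 scale was 0.11 (two-sided exact permutation p = 0.8, adjusted 0.8, where 3 against 2 allow no p under 0.1), and its sign turned to -0.26 without EXT replicate 2 and to -0.022 without RC replicate 3, while it was 0.48 without EXT replicate 1.

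In those 5 libraries desert density was again below that of the other sequence of the same stretch. The log2 ratio was -1.39 and -1.14 in the EXT libraries and -1.77, -1.41 and -1.56 in the RC libraries, with a mean of -1.45 ± 0.23 (SD, n = 5; two-sided exact sign-flip p = 0.063, the smallest that 5 libraries allow, adjusted 0.3125). Against only the sequence between genes and over 50 kb from them it turned to 0.46, higher in deserts in all 5 libraries at the same p. Of the 4 deserts, Plekhb2-Hs6st1 was the densest in every library: it held 37 and 55 peaks in EXT replicates 1 and 2 and 45, 59 and 37 in RC replicates 1 to 3, over 1.19 Mb. The Gm597-Phf3 desert, 2.02 Mb long, held 7 and 20 peaks in the EXT libraries and 12, 16 and 7 in the RC libraries. No desert of the 4 had both EXT libraries above or below all 3 RC libraries.

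Deserts differed widely among themselves. Over the 246, the density ran from 0.741 to 45.6 peaks per Mb with a median of 5.67 in EXT replicate 1, from 1.66 to 62.4 with a median of 9.59 in EXT replicate 2, and from 1.76 to 49.4 with a median of 7.52 in RC replicate 3. No desert was without peaks in any of the 3 lists, and 16 held no region common to all 3. The order of the deserts was shared between libraries, with Spearman coefficients over the 246 deserts of 0.822 between the EXT libraries, 0.899 between EXT replicate 1 and RC replicate 3, and 0.875 between EXT replicate 2 and RC replicate 3. Without the common short widths they were 0.873, 0.851 and 0.834, so which pair was most alike depended on those peaks. These describe deserts that share libraries, length and base composition, and carry no test. Longer deserts were sparser, with coefficients of -0.338, -0.374 and -0.348 between length and density.

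Within a desert the order of the libraries often followed the lengths of their lists. EXT replicate 2, with the longest list, was highest in 195 of 246 deserts, and EXT replicate 1, with the shortest, was lowest in 190. Both EXT libraries lay above RC replicate 3 in 19 deserts and both below it in 30. Among deserts with at least 30 peaks, the largest gap toward EXT was in the Mctp2-Rgma desert on chromosome 7, beside the axon-guidance gene Rgma, with 14 and 21 peaks in EXT replicates 1 and 2 and 9 in RC replicate 3. The largest gap toward RC was in the Tbl1xr1-Naaladl2 desert on chromosome 3, with 8 and 13 peaks in the EXT libraries and 15 in RC replicate 3. With 1 RC library neither gap can be set against the spread between RC pools.

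Most deserts held at least 1 region common to all 3 lists. The desert with the most per Mb was Arpp21-Pdcd6ip (chr9:112236289-113651743), between a gene for a cAMP-regulated phosphoprotein of neurons and a gene of endosomal sorting. It held 60, 77 and 65 peaks in EXT replicate 1, EXT replicate 2 and RC replicate 3, and 21 regions in all 3, which is 16.0 per Mb. Its peaks lay toward Pdcd6ip: of 5 equal pieces of 263 kb, the piece next to Arpp21 held 8, 9 and 6 peaks and that next to Pdcd6ip 19, 26 and 20. It also holds 11 annotated lncRNA genes.

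Next came Auts2-Castor2 (chr5:132543221-134099747), beside the neurodevelopmental gene Auts2, with 43, 80 and 56 peaks in EXT replicate 1, EXT replicate 2 and RC replicate 3 and 23 regions in all 3. The Plekhb2-Hs6st1 desert, beside a heparan sulfate sulfotransferase gene, held 17 such regions, and its lncRNA gene 1110002O04Rik carries the highest-ranked of the promoters printed above. Camk1g-Plxna2 (chr1:193370356-194619790) lies between a calcium-dependent kinase gene and a semaphorin receptor gene and held 31, 46 and 35 peaks and 17 recurrent regions, 6 of them in the piece next to Camk1g and 1 in that next to Plxna2. Zfp516-Tshz1 on chromosome 18, between zinc-finger genes, held 27, 38 and 29 peaks and 13 recurrent regions. These 5 were 1.01 to 1.56 Mb long. Leaving out the short widths kept 16 of the 20 densest deserts among the 20 densest, and Arpp21-Pdcd6ip stayed at rank 1.

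The longest deserts were mostly sparse. Pcdh20-Pcdh9, 4.54 Mb between protocadherin genes of cell adhesion, held 15, 24 and 19 peaks in EXT replicate 1, EXT replicate 2 and RC replicate 3, and 4 regions in all 3. Olfm4-Pcdh17, 4.42 Mb, held 27, 36 and 31 peaks and 8 common regions. Cntnap5b-Cdh20, 4.28 Mb, held 10, 20 and 18 peaks and 1 common region, and Tenm3-Aga, 3.99 Mb, held 10, 18 and 19 peaks and 2 common regions. Celf4-Pik3c3, 4.51 Mb beside the neuronal RNA-binding gene Celf4, stood apart with 39, 79 and 61 peaks and 17 common regions, of which 6 lay in the fifth of its interior next to each gene.

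Of the 16 deserts with no region in all 3 lists, the 5 with the lowest mean density are named. They were Nxph1-Ndufa4, beside the neurexin ligand gene Nxph1, with 7, 5 and 7 peaks over 2.65 Mb, and Serpinb8-Cdh7 with 3, 11 and 4 peaks over 2.37 Mb, followed by 3 more. Mmut-Ptchd4 had 3, 4 and 4 peaks, Abca13-Vwc2 had 2, 7 and 4, and Prmt6-Amy2b had 8, 12 and 9. Over the 5, widths other than 150 and 160 to 163 bp were seen for 1 of 23 peaks in EXT replicate 1, 14 of 39 in EXT replicate 2 and 0 of 28 in RC replicate 3.

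**Figure D4:**
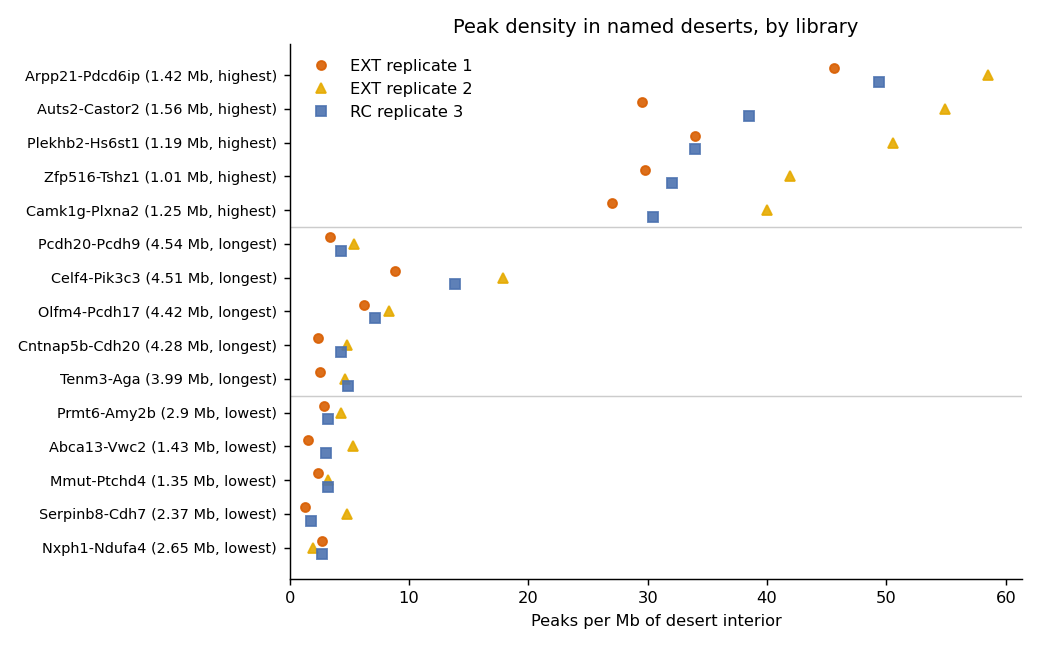
Peaks per Mb of interior (x axis) in the 5 deserts with the most regions per Mb common to all 3 lists, the 5 longest and the 5 with the fewest such regions (rows), with 1 symbol per library. The first set lies between 27.0 and 58.5 peaks per Mb in every library, and the last at 1.32 to 5.27.

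The 455 flanking genes included many neuronal adhesion and developmental genes. Genes listed under synaptic adhesion and axon guidance, a list that also took in Adgrl4, made up 34 (7.47%), against 0.734% of the 20560 autosomal protein-coding genes. Developmental and activity-linked transcription factors made up 23 (5.05% against 1.68%), cadherins and protocadherins 17 (3.74% against 0.452%), and ion channels and transmitter receptors 18 (3.96% against 1.24%). None of 1504 chemosensory receptor genes flanked a desert, and none of a short list of 21 glial and vascular markers did, although genes outside that list that such cells express, such as Gja1 and Cdh5, were among the flanking genes. These counts follow from gene positions and not from the peaks. Deserts lay on both sides of 37 genes, among them Cdh8, Cdh9, Cdh10, Cdh11, Pcdh7, Pcdh9, Pcdh10, Pcdh17, the latrophilin genes Adgrl2 and Adgrl3, and Nova1, a neuronal splicing regulator.

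Deserts beside transcription factor genes held more recurrent regions than the typical desert. Their median was 3.47 regions in all 3 lists per Mb over 23 deserts, against 2.25 over all 246, and 16 of the 23 lay above 2.25. Without the short widths the medians were 1.15 and 0.744 per Mb. Their median length, 1.41 Mb, was near that of all deserts, 1.5 Mb. The Gm11677-Sox9 desert held 25, 28 and 25 peaks in EXT replicate 1, EXT replicate 2 and RC replicate 3 and 13 common regions, and the Sox2-Atp11b desert held 19, 24 and 26 peaks and 10 common regions. Sox2 and Sox9 are regulators of neural progenitor and glial identity. The Sall1-Tox3 desert, beside a zinc-finger developmental gene, held 19, 43 and 32 peaks and 10 common regions.

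Other deserts of this list were sparse. Beside Nr4a2, an orphan nuclear receptor gene induced by activity, the Kcnj3-Nr4a2 desert held 3, 6 and 3 peaks and 2 common regions. Beside Mef2c, which encodes an activity-regulated factor of cortical neurons, the Cetn3-Mef2c desert held 5, 17 and 6 peaks and 1 common region. Rorb-Anxa1, beside a marker of cortical layer 4, held 1, 10 and 5 peaks. EXT replicate 2 stood above the other libraries in all 3 of these deserts, and the other EXT library did not exceed RC replicate 3.

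Deserts beside genes of the other lists had medians below the 2.25 of all deserts, though only just so for ion channel and receptor genes. The 42 deserts next to synaptic adhesion and guidance genes had a median of 1.95 recurrent regions per Mb, with 20 above the median of all deserts, and those next to ion channel and receptor genes 2.2, with 7 of 17 above it. The 19 next to cadherins and protocadherins had a median of 1.65, with 4 above it, and a median length of 3.15 Mb. The length goes with the density, as given above, and its part in these medians was not tested. The densest of the cadherin deserts was Cdh11-Cdh5, with 10.7 per Mb.

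**Figure D5:**
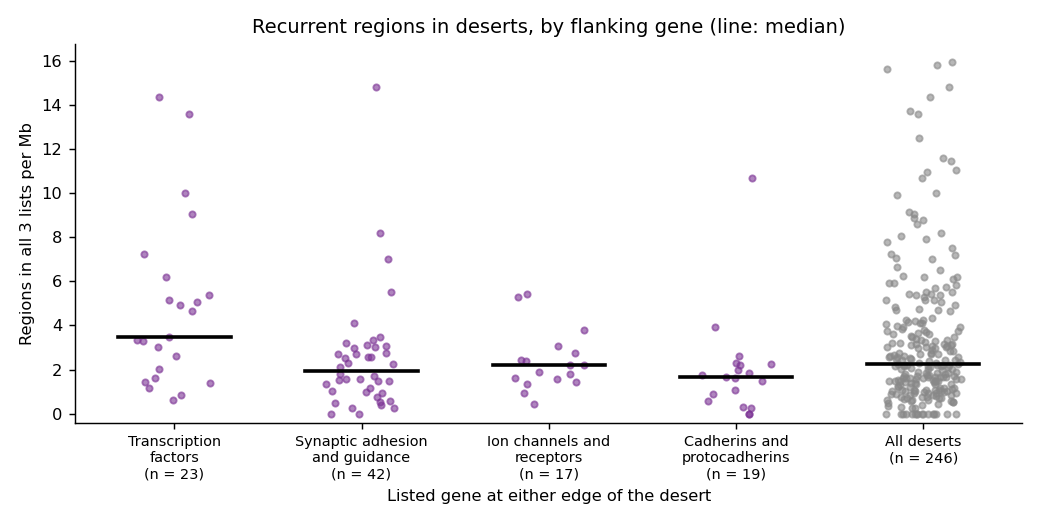
Regions common to all 3 lists per Mb of interior (y axis), 1 point per desert, for deserts with a listed gene at either edge and for all 246 deserts (x axis), with the median as a line. The medians were 3.47 beside transcription factor genes, 1.95, 2.2 and 1.65 beside the other lists, and 2.25 over all deserts; a desert can appear in more than 1 list.

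Among single regions, those held by all 3 lists were named at most 1 per desert, with none taken from chromosome 18. The highest-ranked of these lay at chr4:7391696-7391900 in the Tox-Car8 desert, 400 kb from Tox. Its fold enrichment was 46.5 in EXT replicate 1, 59.3 in EXT replicate 2 and 54.9 in RC replicate 3. The next, chr1:112457507-112457670 in the Dsel-Cntnap5a desert, had folds of 40.2, 56.2 and 52.3, and chr9:17987727-17987909 in Fat3-Chordc1 had 30.9, 48.1 and 43.8. The first pair had the same bounds in every list, as did 37 of the 50 highest-ranked desert regions. For each of these 3 regions the fold was lowest in EXT replicate 1 and highest in EXT replicate 2.

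Then followed chr3:147863443-147863603 in Ttll7-Adgrl2, chr13:25692293-25692452 in Nrsn1-Hdgfl1, chr12:46402640-46402800 in Stxbp6-Nova1, chr3:5860268-5860896 in Pex2-1700008P02Rik and chr1:102628136-102628395 in Cntnap5b-Cdh20, 2138 kb from Cntnap5b. None of the 8 overlapped an annotated noncoding gene, and the nearest such gene was 10.2 to 169 kb away. Of the 8, 5 were under 200 bp long. The widest among the top 8 without the common short widths was chr2:98666179-98667391 in Lrrc4c-Iftap, 1213 bp long with folds of 15.1, 15.3 and 14.1. Pileups of desert peaks reached 8781, 5432 and 8123 in EXT replicate 1, EXT replicate 2 and RC replicate 3, far above their medians. No peaks were removed here for lying in repeated sequence. Whether the highest-ranked regions rest on reads from such sequence was not tested.

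Regions of 1 group alone ranked lower. The highest in both EXT lists and not RC replicate 3 was chr4:94017685-94018273 in Tusc1-Caap1, 589 bp long with folds of 5.31 and 9.60 in EXT replicates 1 and 2. The others named were chr9:81225029-81225272, 403 kb from the serotonin receptor gene Htr1b, and chr1:49671439-49671598 in Slc39a10-Tmeff2. Those of RC replicate 3 alone, chr12:114378963-114379123 within the immunoglobulin heavy chain locus, chr16:61206361-61206520 in Epha6-Nsun3 and chr17:60750463-60750622 in Nudt12-Efna5, were 160 or 161 bp long with folds of 8.23 to 8.38.

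LncRNA genes covered 7.92% of the desert interior and held 14.0%, 14.3% and 13.7% of the desert peaks of EXT replicate 1, EXT replicate 2 and RC replicate 3. There were 898 such genes wholly inside, in 224 of the deserts. Of 849 lncRNA promoter windows in deserts, from 721 genes, 3.30%, 6.36% and 3.65% held a peak, against 13.3%, 18.3% and 14.2% of 10462 lncRNA windows elsewhere. Desert windows were also poorer in CpG dinucleotides, with a median of 2 against 4. In deserts 18 of the 849 windows, from 16 genes, held a peak in all 3 lists. Elsewhere 1123 of the 10462 lncRNA windows did, and 9214 of 31396 promoter windows of all genes. The median of the 18 was 4.5 CpGs. Gm4258 gave 3 overlapping windows under the same peaks, and each is counted here and in the motif shares below.

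Most of these recurrent promoters carried peaks of ordinary width. Over 1110002O04Rik the peaks spanned 625, 537 and 599 bp in EXT replicate 1, EXT replicate 2 and RC replicate 3, with folds of 9.13, 15.9 and 8.74. Over Gm26901 they spanned 801, 876 and 737 bp with folds of 7.82, 9.75 and 9.85, and over Dubr 677, 517 and 359 bp with folds of 8.83, 8.62 and 8.05. The window of BC002059 differed between libraries, with folds of 6.44, 19.3 and 5.20. By contrast LOC115486959 in the Cdh11-Cdh5 desert had a peak of 160 bp with the same bounds in all 3 lists.

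Motif letters were counted in the same windows on both strands. The AP-1 letters TGANTCA stood in 11.3% of desert lncRNA windows, 9.08% of lncRNA windows elsewhere and 7.84% of all promoter windows, and the E-box CAGATG in 22.5%, 21.8% and 17.2%. The cAMP response element TGACGTCA stood in 0.589%, 1.02% and 1.83%, and the GC box GGGCGG in 4.36%, 17.3% and 36.0%. Of the 18 recurrent desert windows, 16.7% held the GC box, among them the CpG-rich Gm26901, Dubr and Gm34507, and 11.1% the AP-1 letters. A match describes the letters of a window and not binding.

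Of 48 annotated miRNA genes in deserts, 42 matched a hairpin in the RefSeq table, and of these 11 had a peak within 1 kb in all 3 lists and 26 in none. Hairpins outside deserts were not counted, so these numbers cannot be read as high or low for miRNAs. The Gm51483-Ndn desert (chr7:61113705-62348276), next to the imprinted gene Ndn, holds 13 hairpins of the Mir344 family over 402 kb. Of these, 7 had a peak within 1 kb in all 3 lists, against 4 of the 29 hairpins in other deserts. Neighbouring hairpins beside the same peak were counted separately, and the peaks of the 3 lists need not overlap each other. Within the cluster there were 34.6 peaks per Mb in EXT replicate 1, 32.2 in EXT replicate 2 and 37.1 in RC replicate 3, while the rest of that desert held 5.48, 8.21 and 9.58. These are 14, 13 and 15 peaks, so the libraries did not differ there beyond a few peaks. Its peaks were of ordinary width, with medians of 190, 397 and 242 bp.

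The 7 hairpins with a peak within 1 kb in all 3 lists were Mir344, Mir344-2, Mir344b, Mir344c, Mir344d-1, Mir344d-3 and Mir344g. They were also the 7 whose 5′ arm carries the seed GUCAGGC printed above, a match seen after the values were known and given without a test. The match depends on where the mature miRNA is annotated to start, since miR-344i holds the same letters outside its seed. It also counts Mir344d-3, where the RC replicate 3 peak lay at another place than the peaks of the EXT libraries. Among 3′ arm seeds, AUAUAAC was on 4 hairpins, 2 of them among these 7, and GAUCUAG on 3, all among the 7. At Mir344 itself the peak spanned 752, 813 and 504 bp in EXT replicate 1, EXT replicate 2 and RC replicate 3, with folds of 4.76, 9.75 and 4.35. At Mir344c it spanned 471, 627 and 700 bp, with folds of 4.58, 9.39 and 5.73. The peak lay on the hairpin for 6, 7 and 6 of the 7. Mir344e, Mir344h-1, Mir344h-2 and Mir344d-2 had no peak within 1 kb in any list, and Mir344f and Mir344i had 1 in EXT replicate 2 only.

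The hairpins are close copies, and the 25 mature entries of the cluster comprise 18 distinct sequences, so reads from these copies may be shared between them and the values of single hairpins are uncertain. The start of the lncRNA gene A330076H08Rik lies at the Mir344g hairpin, and the peaks over its printed window spanned 280, 616 and 398 bp with folds of 4.82, 9.30 and 5.22. B230209E15Rik, another lncRNA gene of that desert, also had a peak over its window in all 3 lists.

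Outside the cluster, the Nr5a2-Ptprc desert holds Mir181a-1 and Mir181b-1, whose 5′ arm miRNAs share the seed ACAUUCA and are abundant in brain and lymphocytes. A peak of 184, 367 and 256 bp lay within 1 kb of both and on the Mir181a-1 hairpin in EXT replicate 1, EXT replicate 2 and RC replicate 3, with folds of 3.06, 5.87 and 4.08. Gm4258, a lncRNA gene of the same desert, had a peak over its promoter window with folds of 4.71, 9.44 and 6.40. The other hairpins with a peak in all lists were Mir1952 in Btbd3-Sptlc3 and Mir6372 in Bcl11a-Fancl, where the EXT replicate 1 peak lay at another place than those of the other libraries. Mir135a-2, Mir195b and Mir205 had none in any list.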

How the data were processed

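The submitters' processing notes give the build mm10 and list MACS2 2.2.4, BWA 0.7.17, HISAT2 2.1.0, SAMtools 1.8 and cutadapt 1.17 among the tools, without saying which step each served. Peak calling, per the file headers, was done by the authors library by library with MACS 2.2.4, no control, a shift of -75 bp, an extension of each tag to 150 bp, all duplicates kept and a q cutoff of 0.05. The deposited pileup is a coverage signal in tags, fold enrichment is the authors' ratio to the local background, and the deposited −log10 q values were used only for filtering and ranking. All are used within a list. With duplicates kept, copies of few molecules can make a peak.

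Deserts came from a RefSeq table of GRCm38.p6, the build of mm10. It had 20560 autosomal protein-coding genes after 105 placed in the first 3 Mb of a chromosome, where the assembly has no sequence, were left out. Peaks merged when they overlapped by 1 bp. The incomplete last line of 2 lists was dropped. Groups came from the sample titles, also where the file name of EXT replicate 2 gives another number. EXT replicate 3 and the lncRNA capture libraries were not analysed here. Differences over libraries were tested by exact sign-flip or permutation tests, with Benjamini-Hochberg adjustment over 5 tests, in Python 3.11.15 with NumPy 2.4.6, pandas 2.3.3 and SciPy 1.17.1. The code was tested on simulated lists. Alternatives were other lengths, margins, thresholds, widths, equal list lengths, summits, named genes only, other backgrounds and leaving out each library.

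Named deserts were the 5 longest and the 5 highest and 5 lowest by density of regions in all 3 lists. Added were those of the shared part of chromosome 1 and the widest EXT and RC gaps among deserts with at least 30 peaks. Named regions were the 8, 3 and 3 of highest mean percentile of fold. The 8, of regions in all 3 lists, were taken at most 1 per desert and none from chromosome 18. Examples of listed flanking genes, promoters and miRNAs were chosen with their values in view. The deserts, lists and rules were chosen with earlier results of these data known.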

Additional observations from a re-analysis of the deposited data

How the results depend on the processing

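Desert density stayed below that of other sequence over the 3 complete lists under all 15 alternatives run (log2 -3.25 to -1.38), and median widths stayed lower under all 13 (-77.3 to -27.7 bp). On the shared part of chromosome 1, 16 of 17 alternatives kept the lower desert density; set against other sequence between genes only, it was 0.460. Recurrence stayed lower under 13 of 14, and leaving out each library gave -12.8 to 1.09 percentage points. EXT minus RC on chromosome 1 had no stable sign: it was -0.00877 at −log10 q of at least 5 and -0.262 to 0.480 when each library was left out. With the replicate block it was -0.0223 (two-sided exact p = 1). Same-numbered samples were not shown to be paired, since only 2 numbers are shared (deviations from the group mean of -0.371 and -0.0843 for replicates 1 and of 0.371 and 0.346 for replicates 2 of EXT and RC).

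Region counts moved with the lists. The 1193 regions in all 3 lists became 389 with deserts of at least 2 Mb, 617 with peaks wider than 160 bp, 503 without the common short widths and 577 without same-bounds peaks. The 304 of both EXT lists became 95 at 2 Mb and 174 at −log10 q of at least 5. The 483 of RC replicate 3 alone became 153 at 2 Mb, 250 with peaks wider than 160 bp and 204 without the common short widths. The last of these settings and the removal of same-bounds peaks were chosen after seeing the data; the cause of each move was not tested. A density over bases other than N was not run, as no genome sequence was used here. Sign-flip tests over 3 libraries cannot reach p under 0.25, and 1 complete RC list allows no test between groups outside chromosome 1.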
